A study of Mus musculus with 12 samples.

Results

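The stearoyl-CoA desaturase family of the mouse was followed across 12 RNA-seq libraries of 3T3-L1 cells, a mouse embryonic fibroblast line that can be turned into fat-storing adipocytes in culture. Its 4 members, Scd1, Scd2, Scd3 and Scd4, were taken by gene symbol from a count table of 54532 genes, and all 4 passed the filter on low counts. The family was chosen by the measured level of Scd1 in these same libraries, which was known to be higher with DMI and lower with the compounds. The 4 groups held 3 libraries each. All cells carried the wild-type genotype per the labels, and all RNA was taken at day 6. The untreated group was labelled as preadipocytes without treatment. The DMI group received the standard adipogenic cocktail, 1 uM dexamethasone, 0.5 mM IBMX (a phosphodiesterase inhibitor) and 10 ug/ml insulin, up to day 2, then insulin alone for 2 days and then serum-containing medium. The other two groups received DMI with luteolin or DMI with quercetin, both plant flavonoids; quercetin, a flavonol, carries a hydroxyl group on its central ring that luteolin, a flavone, lacks. The labels used here give no dose or exposure time for either compound, so the compounds are set side by side without a matched dose. Whether replicates were separate cultures is not stated, so each p-value measures only the spread between these samples, and that spread may be technical.

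Stearoyl-CoA desaturases sit in the membrane of the endoplasmic reticulum and place a double bond at the ninth carbon of saturated fatty acyl-CoA. They turn palmitate into palmitoleate and stearate into oleate, the main fatty acids of stored triglyceride. The electrons come from NADH through cytochrome b5 reductase and cytochrome b5. In mice Scd1 is the major form of adipose tissue and is induced during fat cell differentiation, Scd2 is widespread and prominent in brain and in early life, Scd3 is best known from skin and its glands, and Scd4 from heart.

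The genes form a cluster of 204 kb on chromosome 19. Positions are those of the deposited table, which match the GRCm38 annotation for 98.3% of genes although the submitters' processing notes name mm9. Scd3 (ENSMUSG00000025202, plus strand) lies at chr19:44203288-44244016, Scd2 (ENSMUSG00000025203, plus) at chr19:44293676-44306864, Scd4 (ENSMUSG00000050195, plus) at chr19:44333092-44346743 and Scd1 (ENSMUSG00000037071, minus) at chr19:44394451-44407709. Of these only Scd4 has the same start and end in the GENCODE M21 annotation. There Scd1 lies at chr19:44394455-44407879, Scd3 begins at 44203269 and Scd2 at 44293674. Each coding sequence spans 6 exons in the GENCODE M21 annotation, and their lengths are 1068 bases for Scd1, 1077 for Scd2, 1080 for Scd3 and 1062 for Scd4. The coding sequence of Scd1 was identical to that of Scd3 at 90.5% of aligned positions, to Scd2 at 89.6% and to Scd4 at 84.5%. The closest and the most different stretches decide how well reads can be assigned to one member, so one of each is shown. The first set is a stretch of 90 coding bases inside 1 exon, at chr19:44401728-44401817 in Scd1, chr19:44299690-44299779 in Scd2, chr19:44235852-44235941 in Scd3 and chr19:44338991-44339080 in Scd4, written 5′ to 3′ on the coding strand with capitals at bases that differ from Scd1.
Scd1: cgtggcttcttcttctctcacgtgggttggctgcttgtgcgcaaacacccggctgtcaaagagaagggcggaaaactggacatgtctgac
Scd2: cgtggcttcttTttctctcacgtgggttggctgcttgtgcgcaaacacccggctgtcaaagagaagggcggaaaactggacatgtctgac
Scd3: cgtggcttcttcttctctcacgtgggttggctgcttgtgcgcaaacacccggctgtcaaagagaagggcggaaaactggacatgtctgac
Scd4: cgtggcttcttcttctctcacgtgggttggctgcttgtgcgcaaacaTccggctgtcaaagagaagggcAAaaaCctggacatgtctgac
In this stretch Scd3 had 0 bases different from Scd1, Scd2 had 1 and Scd4 had 4. The second set, again with capitals at differences from Scd1, is a stretch of 90 coding bases that crosses an exon junction and begins at coding position 292 in Scd1, 301 in Scd2, 304 in Scd3 and 286 in Scd4.
Scd1: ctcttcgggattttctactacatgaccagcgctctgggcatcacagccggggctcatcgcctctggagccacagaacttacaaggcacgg
Scd2: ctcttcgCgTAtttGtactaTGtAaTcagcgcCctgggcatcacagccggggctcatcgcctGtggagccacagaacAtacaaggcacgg
Scd3: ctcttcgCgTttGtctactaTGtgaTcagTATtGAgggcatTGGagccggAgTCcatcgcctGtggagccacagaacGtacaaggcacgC
Scd4: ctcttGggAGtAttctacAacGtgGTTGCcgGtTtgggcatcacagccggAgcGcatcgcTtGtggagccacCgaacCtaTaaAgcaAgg
Here Scd2 differed from Scd1 at 11 bases, Scd3 at 20 and Scd4 at 22. The longest run shared without a mismatch by the Scd1 and Scd3 transcripts was 185 bases. Of the 100-base words of the Scd3 transcript, 2.54% also occurred in the Scd1 transcript. No source used here says how the authors' counting split reads in such stretches, so the counts of Scd3, which were far below those of Scd1, are uncertain in that part. The library kit, NEBNext Ultra, keeps no strand information, and a microRNA gene, Mir5114, lies within Scd2 and had 0 counts in every library.

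The libraries held 14522182 to 19436796 counts over genes. Levels are given as CPM (counts divided by the scaled library size) and, between genes, as the authors' FPKM, which also divide by gene length. The defining adipocyte markers summed to 23.6 to 35.7 CPM in untreated cells and to 542 to 10033 CPM in the induced libraries, while the fibroblast and preadipocyte markers summed to 36981 to 39034 CPM in untreated and 15571 to 27412 CPM in induced libraries. The macrophage, endothelial, epithelial, muscle and neural marker lists stayed at or below 6.45 CPM in every library. In bulk RNA, fewer adipocytes and less RNA per adipocyte cannot be told apart. The third library of each induced group stood apart from the other two: the median log2 CPM of a 15-gene adipocyte panel was 8.22 there against 10.0 and 10.5 in DMI, 8.24 against 9.34 and 9.48 with luteolin, and 6.16 against 8.72 and 8.69 with quercetin. The main values below are therefore also given without these libraries. They were left out because they were seen to stand apart, which leaves 2 libraries per induced group and a narrower spread. Smaller p-values in that fit follow in part from this choice.

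**Figure D1:**
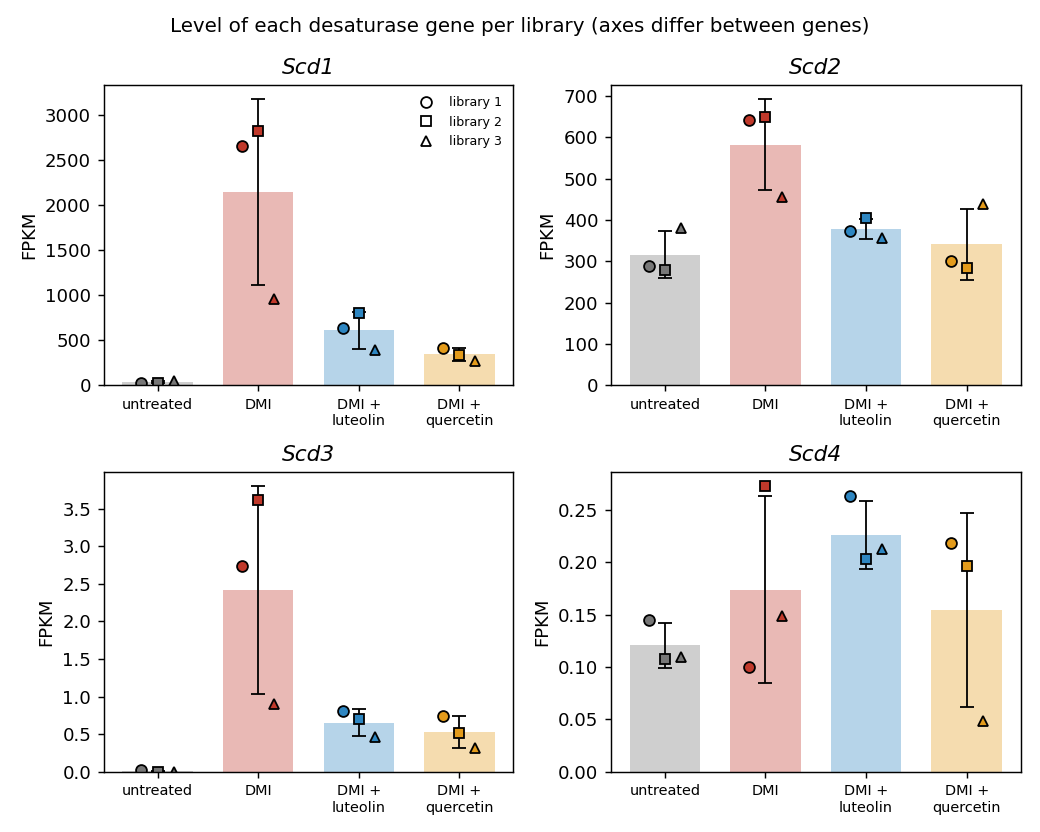
Level of each family member in every library, as authors' FPKM, for the 4 groups of 3 libraries; points are libraries, bars start at 0 and show the mean, and whiskers the SD (cut at 0 where the SD exceeds the mean). The axes differ between genes. Scd1 was between 24.1 and 42.5 FPKM in untreated cells and between 960 and 2817 with DMI, and the Scd2 values of the groups lay much closer together.

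Scd1, the main adipose desaturase, had the widest range of levels in CPM. Its levels chose the family and are given without a test. Untreated libraries had 2013, 2008 and 3503 counts. DMI libraries had 204621, 198978 and 74708 counts, luteolin libraries 52739, 65811 and 28477, and quercetin libraries 36673, 33314 and 21028. Every induced library was above every untreated library, every library with a compound was below every DMI library, and the luteolin and quercetin libraries overlapped. The group means were 152 ± 51.6 CPM (SD, n = 3) in untreated cells, 10368 ± 5011 with DMI, 2949 ± 999 with luteolin and 1659 ± 356 with quercetin. The order from high to low was thus DMI, luteolin, quercetin and untreated, and the luteolin and quercetin groups, neighbours in that order, were not separated by their spread. Among all genes ranked by FPKM, Scd1 stood at ranks 7, 8 and 20 in the DMI libraries, and it took 0.471% to 1.31% of all counts there. With luteolin its rank was between 24 and 69, with quercetin between 59 and 112, and in untreated cells between 1044 and 2008.

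The fitted Scd1 level with DMI was 68.1-fold that of untreated cells, a log2 difference of 6.09 with an SE of 0.48. Luteolin libraries were 3.52-fold lower than DMI libraries (log2 -1.81, SE 0.39) and quercetin libraries 6.25-fold lower (log2 -2.64, SE 0.41). Both compound groups stayed well above the untreated level, at log2 differences of 4.28 (SE 0.44) with luteolin and 3.45 (SE 0.42) with quercetin. Luteolin exceeded quercetin by 0.83 on the log2 scale with an SE of 0.38, and a 95% interval of -0.00 to 1.66. DMI replicate 3, at 4599 CPM, was 2.88-fold below the mean of the other two DMI libraries. With replicate 3 of all induced groups left out, the ratio of mean CPM was 87.1 for DMI over untreated, 3.81 for DMI over luteolin and 7.19 for DMI over quercetin.

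Scd2, the widespread form, was already abundant before induction and moved within a narrow range. Untreated libraries had 25943, 26140 and 35453 counts and DMI libraries 55731, 51739 and 39937. Luteolin libraries had 34966, 37558 and 29153 counts and quercetin libraries 29968, 31325 and 39083. All DMI libraries were above all libraries of the other 3 groups in CPM, and those 3 groups overlapped each other. Mean levels were 1771 ± 322 CPM (SD, n = 3) in untreated cells, 3170 ± 616 with DMI, 2064 ± 140 with luteolin and 1872 ± 456 with quercetin. The order was DMI, luteolin, quercetin and untreated, and the lower 3 did not differ beyond their spread. Scd2 rose with DMI by 0.84 on the log2 scale (SE 0.21, edgeR adjusted p = 0.0107), a 1.79-fold difference. That call ended without DMI replicate 2 (edgeR adjusted p = 0.0503), untreated replicate 1 (0.0527) or untreated replicate 2 (0.0541).

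Against DMI, the Scd2 difference was -0.62 with luteolin (SE 0.20, edgeR adjusted p = 0.632) and -0.76 with quercetin (SE 0.20, edgeR adjusted p = 0.0844), so neither passed over the 12 libraries. With replicate 3 of all induced groups left out, both passed, at -0.70 with luteolin (edgeR adjusted p = 0.00302) and -1.10 with quercetin (edgeR adjusted p = 1.82e-05), in a fit that called 10.4% and 33.4% of all genes. Quercetin also passed without DMI replicate 3 alone, at -0.91 (edgeR adjusted p = 0.00917), where 17.4% of all genes were called. Quercetin replicate 3 had the highest Scd2 level of its group, at 1.49 times the mean of the other two, while its Scd1 level was the lowest of the group. Compared with untreated cells, Scd2 differed by 0.22 with luteolin (SE 0.20, edgeR adjusted p = 0.485) and by 0.08 with quercetin (SE 0.20, edgeR adjusted p = 0.848). Luteolin minus quercetin was 0.14, with an interval of -0.30 to 0.58.

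Scd3, the skin form, was close to absent in untreated cells, with 1, 0 and 0 counts. DMI libraries had 151, 183 and 50 counts, luteolin libraries 48, 41 and 24, and quercetin libraries 47, 36 and 18. The groups separated as for Scd1: all induced libraries were above the untreated ones, both compound groups were below DMI, and the compound groups overlapped. Per length Scd3 remained scarce, at 2.74, 3.61 and 0.896 FPKM in the DMI libraries. From 1 untreated count the DMI ratio was 414 with an exact counting interval of 73.8 to 16375, and the ratio was 121 with luteolin (21.3 to 4814) and 95.8 with quercetin (16.8 to 3820). These intervals pool the counts of each group's libraries, cover counting error only and are not read as a test.

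Scd3 passed the filter on low counts only through its induced libraries, so its levels against untreated cells are a description and no test is read from them. The difference from DMI was -1.87 with luteolin (SE 0.47, edgeR adjusted p = 0.454) and -2.18 with quercetin (SE 0.48, edgeR adjusted p = 0.0506), and neither passed. Both passed with replicate 3 of all induced groups left out, at -2.05 (edgeR adjusted p = 0.000456) and -2.30 (edgeR adjusted p = 2.7e-05). That fit called 10.4% and 33.4% of all genes, and the libraries left out had the lowest Scd3 level of each induced group. For quercetin the authors' deposited table gives -2.18 with an adjusted p of 0.00156, and for luteolin -1.86 with 0.0533. For Scd2 it gives -0.61 with luteolin (adjusted p 0.0942) and -0.75 with quercetin (0.105). Without luteolin replicate 3, without quercetin replicate 1 or without DMI replicate 3, the quercetin difference of Scd3 passed, with edgeR adjusted p = 0.0457, 0.0424 and 0.00153. Those fits called 1.79%, 3.78% and 17.4% of all genes. With any other single library left out it did not pass, at edgeR adjusted p up to 0.245. The luteolin difference passed only without DMI replicate 3 among single libraries (edgeR adjusted p = 0.017), where 1.7% of all genes were called. For every 1000 counts of Scd1, the summed libraries held 0.803 counts of Scd3 with DMI, 0.769 with luteolin, 1.11 with quercetin and 0.133 in untreated cells, where only 1 Scd3 count was seen. The ratio per induced library ran from 0.623 to 1.28. Because the transcripts share identical stretches, such as the conserved stretch printed above, the part of misassigned Scd1 reads in these counts was not tested.

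Scd4, the heart form, was near the limit of detection in every group. It passed the filter on low counts only through its induced libraries, so its levels against untreated cells are a description and no test is read from them. Untreated libraries had 9, 7 and 7 counts, DMI libraries 6, 15 and 9, luteolin libraries 17, 13 and 12, and quercetin libraries 15, 15 and 3. The luteolin libraries lay above the untreated ones in CPM, and all other pairs of groups overlapped. The fitted difference was 0.47 for DMI against untreated (SE 0.54). Between induced groups no comparison passed for Scd4. The difference was 0.39 for luteolin against DMI (SE 0.51, edgeR adjusted p = 0.998) and -0.12 for quercetin against DMI (SE 0.52, edgeR adjusted p = 0.914). For luteolin against quercetin it was 0.51 (SE 0.50, edgeR adjusted p = 0.722). At these few counts the fitted interval for DMI against untreated ran from -0.70 to 1.64, which includes a 3.11-fold rise.

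**Figure D2:**
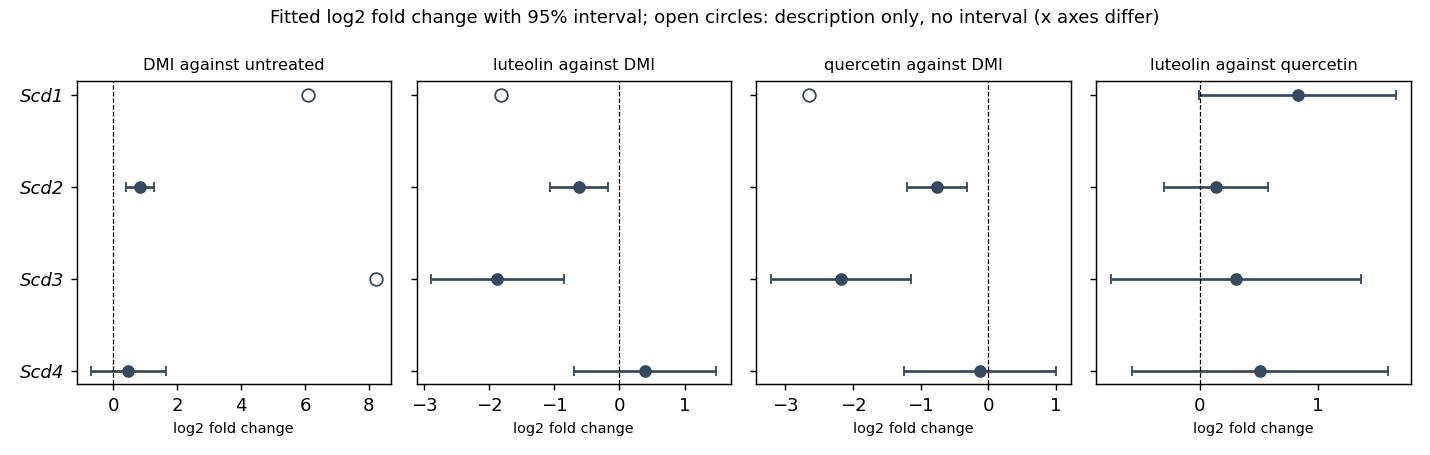
Fitted log2 fold change of each member in 4 of the comparisons (x axes differ), with points at the estimate and whiskers at the 95% interval of the fit over all genes. Open circles without whiskers are values given as description only, Scd1 against DMI or untreated and Scd3 against untreated. The Scd4 value for DMI against untreated is also description only, although its whiskers are drawn. Scd2 was at 0.84 with DMI, and the Scd4 intervals all include 0.

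Calls over the family leave out what chose it. Scd1 and, against untreated cells, Scd3 and Scd4 are not counted. That leaves Scd2 against untreated cells. It passed with DMI, where 27.1% of all 14855 genes tested passed, 14.7% higher and 12.4% lower. In quercetin against DMI edgeR called 0 of Scd2, Scd3 and Scd4, beside 1.01% of all genes (0.162% higher, 0.848% lower). 2 of the 3 had an unadjusted p under 0.05, beside 3159 of all 14855 genes. DESeq2 called 2 beside 6.4% of all genes, and limma-voom called 0. In luteolin against DMI edgeR called 0 of these 3, beside 0.0202% of all genes. Again 2 had an unadjusted p under 0.05, beside 904 of all 14855 genes. DESeq2 called 1 beside 0.333% of all genes, and limma-voom called 0. The third luteolin and DMI libraries deviated together, while replicates 1 and 2 showed no pairing by number. With the number as a replicate block on the 6 libraries of these groups, edgeR called 2 of the 3, Scd2 and Scd3, beside 6.58% of all genes. With the block over all 12 libraries it called 0. Luteolin against quercetin had 0 of the 3 called by edgeR, beside 0% of all genes, 0 with an unadjusted p under 0.05, and 0 by DESeq2 and limma-voom. Against untreated cells Scd2 was not called with luteolin, beside 19.3% of all genes (10.5% higher, 8.74% lower). Nor was it called with quercetin, beside 9.45% (4.79% higher, 4.66% lower). Comparisons with DMI share its libraries, and so do those with untreated cells.

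Added up per length, the family's message was 347 ± 67.5 FPKM (SD, n = 3) in untreated cells, 2731 ± 1141 with DMI, 989 ± 230 with luteolin and 682 ± 52.4 with quercetin. The DMI sum was 7.87 times the untreated sum and 2.76 times the luteolin sum. The mean sum with replicate 3 of all induced groups left out was 3388 with DMI, 1109 with luteolin and 670.1 with quercetin. The leading member differed between groups. Scd2 made up 91.3% ± 1.15 of the sum in untreated cells, and Scd1 made up 76.5% ± 7.53 with DMI. With luteolin the Scd1 share was 60.5% ± 7.28. With quercetin Scd2 held 49.9% ± 10.8 and Scd1 nearly all of the rest. The mean Scd1 share with replicate 3 of the induced groups left out was 80.8%, 64.6% and 56.2%. The ratio of Scd1 to Scd2 ranged from 0.0866 to 0.111 in untreated libraries, 2.11 to 4.34 with DMI, 1.10 to 1.98 with luteolin and 0.607 to 1.38 with quercetin. The DMI libraries did not overlap the compound libraries in this ratio, and the compound groups overlapped each other. These sums, shares and ratios depend on the Scd1 levels that chose the family, so they are a description without a test. Scd3 and Scd4 together were at most 0.134% of the sum in any library.

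**Figure D3:**
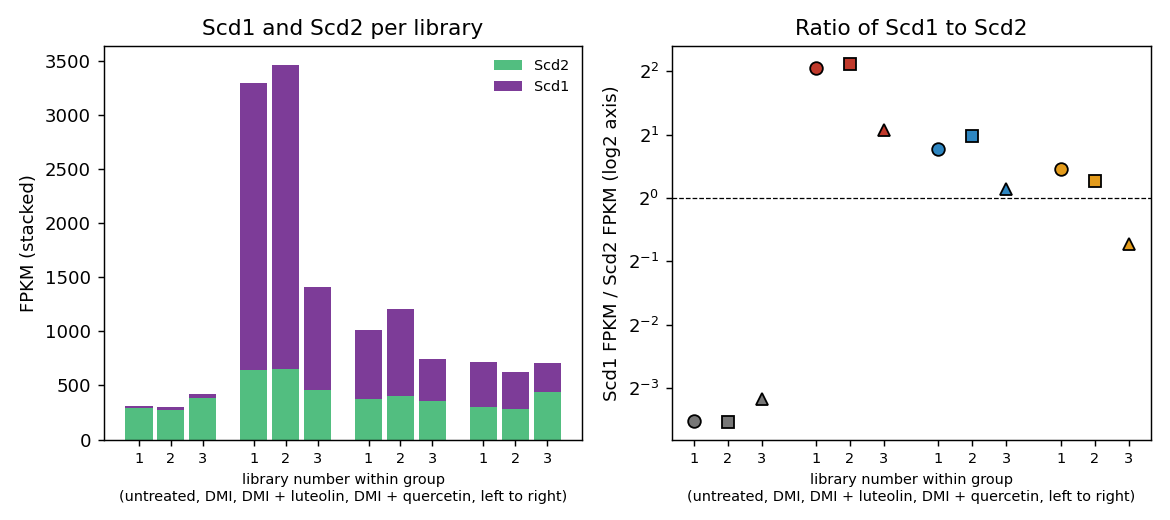
Left, Scd1 and Scd2 stacked in FPKM for each library, by group; right, the ratio of Scd1 to Scd2 per library on a log2 axis, with a dashed line at 1. Scd2 fills most of the bar in untreated libraries and Scd1 most of it in DMI libraries, and the quercetin ratios lie from 0.607 to 1.38.

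The adipocyte panel moved with Scd1 across the groups, so Scd1 was also set against it within each library. The values below use the Scd1 levels that chose the family and are a description without a test. The panel holds 15 genes of mature adipocytes, among them Fabp4, Adipoq and Plin1. In log2 CPM, Scd1 exceeded the panel's median by 3.64, 3.24 and 3.95 in the DMI libraries and by 2.24, 2.44 and 2.65 in the luteolin libraries. In the quercetin libraries the excess was 2.25, 2.02 and 4.18. The luteolin libraries were all below the DMI libraries on this relative scale, while in the quercetin group replicates 1 and 2 were below and replicate 3 was above all DMI libraries. With the panel summarised by its mean, the excess of quercetin replicate 3 was 3.85, just under the 3.88 of DMI replicate 3. With replicate 3 of all induced groups left out the mean excess was 3.44 with DMI, 2.34 with luteolin and 2.14 with quercetin. DMI replicate 3 and luteolin replicate 3 had nearly the same panel median, 8.22 and 8.24, with a Scd1 excess of 3.95 and 2.65. Their panel means were less alike, 8.29 and 7.98, with a Scd1 excess of 3.88 and 2.91. The part of the number or maturity of adipocytes in the Scd1 differences was not tested beyond these values.

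**Figure D4:**
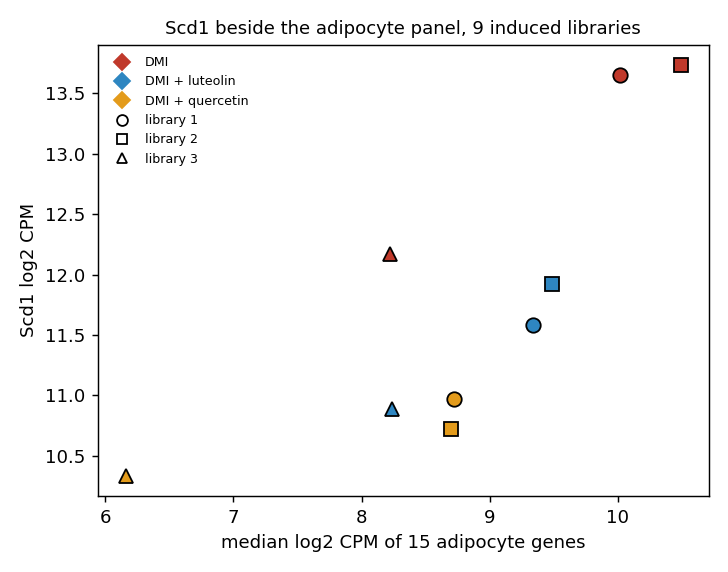
Scd1 against the median of 15 adipocyte panel genes in each induced library, both in log2 CPM; colours mark the group and shapes the library number. Scd1 lies above the panel's median in every induced library, and the third library of each group has the lowest panel median of its group.

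The genes that work with the desaturases were read from fixed lists in the same fit. Over all genes tested, 14.7% passed as higher and 12.4% as lower with DMI, and 0.162% and 0.848% with quercetin against DMI. Of the palmitate and stearate supply list, 14 of 16 genes were tested. With DMI 8 rose and 0 fell, with a median of 0.83 on the log2 scale beside -0.04 over all genes. Fasn, the fatty acid synthase that makes palmitate, rose by 1.94 (SE 0.29, edgeR adjusted p = 0.000824), and Me1, malic enzyme, which makes NADPH, by 1.31 (SE 0.25, edgeR adjusted p = 0.00335). With quercetin against DMI 2 fell, Fasn by 1.63 (SE 0.29, edgeR adjusted p = 0.042) and Acaca, the acetyl-CoA carboxylase of the cytosol, by 1.02 (SE 0.21, edgeR adjusted p = 0.0484). Acacb, the other acetyl-CoA carboxylase, missed the threshold at -1.28 (SE 0.28, edgeR adjusted p = 0.0502). The median of the list was -0.48 with quercetin beside 0.02 over all genes, and -0.29 with luteolin beside -0.02. Both calls ended under limma-voom, in a fit of only the 6 libraries compared, and when any 1 library other than DMI replicate 3, luteolin replicate 3 or quercetin replicate 1 was left out. The edgeR adjusted p was then up to 0.205 for Fasn and 0.235 for Acaca. The Acaca call also ended under a filter of 1 CPM in 3 libraries (edgeR adjusted p = 0.0509) and with library totals as the only scaling (0.0518). With replicate 3 of all induced groups left out, 11 genes were lower and 1 higher with quercetin, in a fit that called 33.4% of all genes. Elovl6, the elongase that makes stearate from palmitate, had a difference of -0.96 with DMI (SE 0.37, edgeR adjusted p = 0.0759) and passed in that fit.

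Of 6 tested genes of the electron supply to the desaturases, the cytochrome b5 genes Cyb5a and Cyb5b rose with DMI, by 1.84 (SE 0.29) and 0.94 (SE 0.22), and the reductase gene Cyb5r1 fell by 1.33 (SE 0.17), with edgeR adjusted p = 0.00107, 0.0084 and 0.000294. Cyb5r3, the main cytochrome b5 reductase, had a difference of 0.04 (SE 0.15). None of the 6 was called by edgeR with quercetin against DMI. Of these, 1 had an unadjusted p under 0.05, beside 3159 of all 14855 genes. DESeq2 called 1, beside 6.4% of all genes, and limma-voom 0. With replicate 3 of the induced groups left out edgeR called 4, beside 33.4% of all genes. Of 5 other desaturases tested, Fads6 rose with DMI by 1.85 (SE 0.43, edgeR adjusted p = 0.0084) at a low level, and Fads1, which acts on polyunsaturated fatty acids, fell by 0.49 (SE 0.14, edgeR adjusted p = 0.0235). The Fads1 call ended without DMI replicate 1 or 2 (edgeR adjusted p = 0.107 and 0.102) and without untreated replicate 1 or 3 (0.0513 and 0.169). Fads2, its partner in that pathway, had a difference of 0.05 (SE 0.13). EdgeR called 0 of the 5 with quercetin against DMI, 1 had an unadjusted p under 0.05, and DESeq2 and limma-voom called 0. With replicate 3 of the induced groups left out edgeR called 1, beside the same 33.4% of all genes.

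Genes that activate oleate or put it into lipid came next. With DMI 8 of 14 tested rose and 1 fell, beside 14.7% and 12.4% of all genes. Acsl1, an acyl-CoA synthetase, rose by 7.53 (SE 0.70) and Dgat2, which completes triglyceride, by 7.44 (SE 0.73), both with edgeR adjusted p = 0.000126, and Lpin1, a phosphatidate phosphatase, by 4.45 (SE 0.51, edgeR adjusted p = 0.000206). With quercetin against DMI edgeR called 0 of 14. Of these, 9 had an unadjusted p under 0.05, beside 3159 of all 14855 genes. DESeq2 called 6, beside 6.4% of all genes, and limma-voom called 0. EdgeR called 11 of 15 with replicate 3 of the induced groups left out, beside 33.4% of all genes. The differences were -2.04 for Acsl1 (edgeR adjusted p = 0.0827), -2.28 for Dgat2 (0.0646), -1.81 for Lpin1 (0.0694) and -0.98 for Gpam (0.0592), the acyltransferase of the first step. The median of this list was 1.24 with DMI, -0.41 with luteolin and -0.85 with quercetin.

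Of 23 regulators known to act on Scd1 transcription, 2, Mlxipl and Ppara, passed the filter on low counts only through induced libraries. Of the other 21, 9 rose and 1 fell with DMI, with a median of 0.39. Of all genes that reached the filter's level in untreated cells, 12.9% rose and 13.0% fell. Mlxipl, the carbohydrate response factor ChREBP, had 0 counts in untreated libraries and a mean of 5.65 CPM with DMI. Nr1h3, the oxysterol receptor LXR alpha, rose by 4.61 (SE 0.59, edgeR adjusted p = 0.00034), Pparg, the master regulator of fat cells, by 3.55 (SE 0.47, edgeR adjusted p = 0.000441) and Srebf1, the sterol regulatory factor of lipogenesis, by 1.35 (SE 0.25, edgeR adjusted p = 0.00237). With quercetin against DMI edgeR called 0 of 23. Of these, 11 had an unadjusted p under 0.05, beside 3159 of all 14855 genes. DESeq2 called 6, beside 6.4% of all genes, and limma-voom called 0. With replicate 3 of the induced groups left out edgeR called 14, beside 33.4% of all genes. The values were -1.92 for Nr1h3 (edgeR adjusted p = 0.0803), -2.40 for Ppara (0.0522), -3.14 for Mlxipl (0.0618), -1.42 for Pparg (0.106) and -0.74 for Srebf1 (0.123). Over the panel and the 5 lists together, 74 genes, edgeR called 0 with luteolin against DMI. Of these, 12 had an unadjusted p under 0.05, beside 904 of all 14855 genes, and DESeq2 and limma-voom called 0. With replicate 3 of all induced groups left out edgeR called 31 of them with luteolin, beside 10.4% of all genes, and 54 with quercetin, beside 33.4%. In the panel itself 13 genes reached the filter's level in untreated cells and all 13 rose with DMI, and 2 of 15 fell with quercetin against DMI, Slc2a4, the insulin-responsive glucose transporter, by 3.15 (SE 0.59, edgeR adjusted p = 0.0443) and Retn, the hormone resistin, by 3.05 (SE 0.61, edgeR adjusted p = 0.0484). These calls ended under limma-voom, which called 0 of the panel, in a fit of only the 6 libraries compared, and without any 1 of the same libraries as for Fasn. The edgeR adjusted p was then up to 0.21 for Slc2a4 and 0.219 for Retn. The Retn call also ended under a filter of 1 CPM in 3 libraries (edgeR adjusted p = 0.0509) and with library totals as the only scaling (0.0518). DESeq2 called 5 of the panel, beside 6.4% of all genes. EdgeR called 15 with replicate 3 of the induced groups left out, beside 33.4%.

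**Figure D5:**
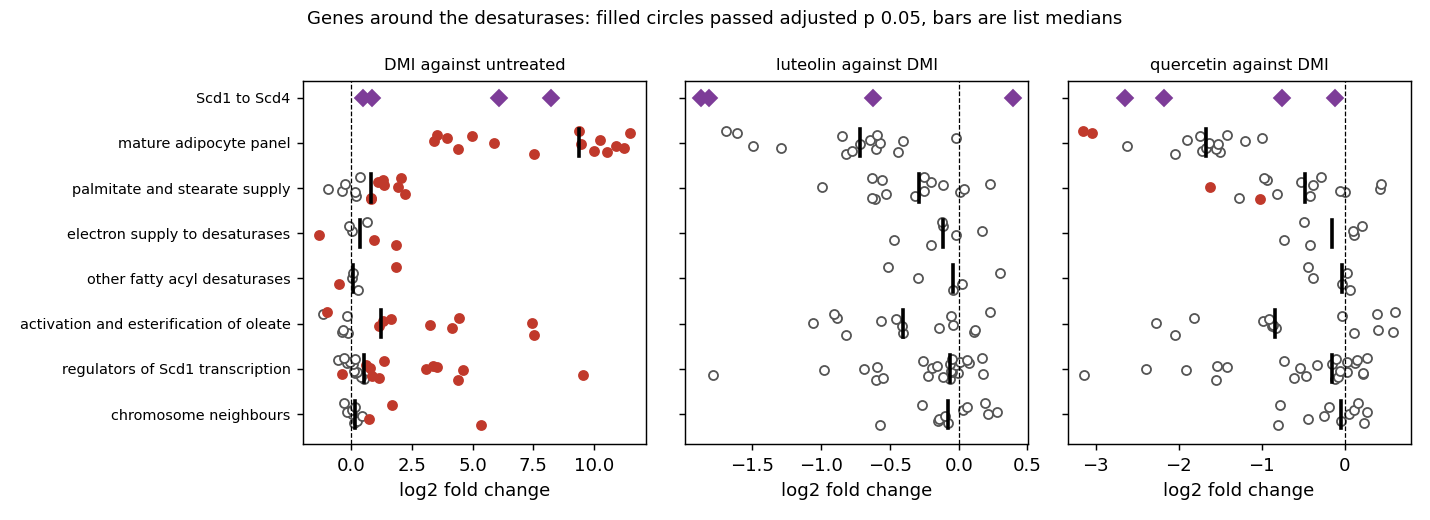
Log2 fold changes of the genes of each list and of the 4 family members, for DMI against untreated and for each compound against DMI (x axes differ). Circles are genes, filled where they passed, diamonds are the family members and vertical bars the list medians. The adipocyte panel has the highest median with DMI, 9.39, and the lowest with quercetin, -1.68. Without Retn and Slc2a4, which passed the filter only through induced libraries, its DMI median is 7.53.

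Of 25 genes within 500 kb of the family 11 were tested. Abcc2, a transporter with 1 count over the untreated libraries and 51 over the DMI libraries, passed the filter only through induced libraries. Of the other 10, 2 rose with DMI, beside 12.9% of all genes that reached the filter's level in untreated cells. They were Ndufb8, a respiratory complex subunit, by 1.68 (SE 0.34), and Cox15, a heme enzyme, by 0.73 (SE 0.20), with edgeR adjusted p = 0.00424 and 0.0178. The Cox15 call ended without DMI replicate 1 or 2 and without untreated replicate 2 or 3. With quercetin against DMI edgeR called 0 of 11. Of these, 3 had an unadjusted p under 0.05, beside 3159 of all 14855 genes, and DESeq2 and limma-voom called 0. With replicate 3 of the induced groups left out edgeR called 4, beside 33.4% of all genes. The nearest tested neighbours were Bloc1s2, 56.8 kb before the cluster, with a difference of 0.10 (SE 0.15), and Cwf19l1, 67.4 kb before it, with 0.03 (SE 0.16). After the cluster Sec31b, at 109 kb, had a difference of -0.31 (SE 0.24), and Ndufb8 lay at 141 kb. The median of the 11 was 0.14 with DMI (0.12 without Abcc2), -0.08 with luteolin and -0.04 with quercetin. The promoter table of RefSeq (GRCm38.p6) held windows for Scd3 and Scd4, and neither contained any of 8 motifs searched on both strands, among them CCAAT, found in 37.4% of 32851 promoters, and CACGTG, found in 7.15%.

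The genes with the pattern most like that of each abundant member were taken among 10195 protein-coding genes with a mean of at least 5 CPM, by the root mean square difference of centred log2 CPM over the 12 libraries. For Scd1 these were Greb1 (0.41), Mgll (0.45), Syn2 (0.46), Siglec1 (0.47) and Cox8b (0.47). Scd3, below that minimum, was at 0.39 from Scd1. In untreated cells the 5 genes had means from 0.04 CPM (Greb1) to 0.83 CPM (Siglec1). Scd3 had 0.02 CPM there and Scd1 152 CPM. The prior count of 2 limits how low such values go, so the small distances of Greb1 and Scd3 depend on it. Fitted DMI differences were 8.14 for Greb1 and 8.23 for Scd3, against 6.09 for Scd1. For Scd2 the genes most alike were Sqle (0.09), Ppp1r3d (0.14), Arhgap18 (0.14), Acat2 (0.15) and Rnf24 (0.15). Sqle, squalene epoxidase, and Acat2, an acetoacetyl-CoA-forming thiolase, are enzymes of cholesterol synthesis. Scd1 and Scd2 were 1.96 apart on this scale.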

How the data were processed

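RNA-seq counts per gene for 12 libraries were used as the authors deposited them. Per the submitters' processing notes, base calling used CASAVA 1.8.2 and counting featureCounts 1.5.0-p3 with the build mm9; no source used here names the aligner. The deposited FPKM values were used for levels per length only; they imply library sizes of 0.962 to 1.05 times the count totals, so they carry a scaling whose origin is not given. The authors' deposited log2 fold changes and adjusted p-values are quoted where named.

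Genes were kept by filterByExpr (14855 of 54532), scaled by TMM and fitted with edgeR 4.0.16 (R 4.3.3) quasi-likelihood tests, 1 term per group over all 12 libraries, with Benjamini-Hochberg adjustment over all genes tested and a threshold of 0.05. The fit was also run on simulated counts, drawn independently per library and without the deviation of the third induced libraries. That run therefore does not bear on calls that depend on those libraries. Genes with no untreated library at the filter's level of 10 counts, scaled to library size, were set aside in comparisons with untreated cells, a choice made after the data were seen. SE is the log2 fold change divided by the square root of the F statistic, and intervals are at 95%. Log2 CPM used a prior count of 2. DESeq2 1.42.0 and limma-voom (limma 3.58.1), other scalings and filters, and leaving out libraries were alternatives. Gene symbols turned into dates were restored for 27 genes.

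Deviations from the group means of same-numbered luteolin and DMI libraries correlated at 0.261, 0.337 and 0.59 over genes. Unlike numbers correlated too, at 0.226 for luteolin replicate 1 with DMI replicate 2 and 0.367 for luteolin replicate 2 with DMI replicate 1. Only the third libraries thus went together by number, and replicates 1 and 2 showed no pairing of their own. For quercetin and DMI the same-numbered values were 0.0682, 0.279 and 0.335. The labels do not say what a number marks. The members and lists were chosen with earlier results of these data known. Named genes are the 4 members, up to 4 genes per list with the smallest adjusted p for quercetin against DMI, the 2 nearest tested neighbours on each side, the 5 genes most like Scd1 or Scd2, and others singled out after their values were seen.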

Additional observations from a re-analysis of the deposited data

How the results depend on the processing

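Alternatives left the direction of every Scd1 and Scd3 difference between a group and DMI or untreated cells as reported; how many genes passed against DMI depended on the setting, for the whole table as for the family. The counts here are of Scd2, Scd3 and Scd4 and leave out Scd1, with the number of all genes called in parentheses. Members called in luteolin against DMI, 0 in the edgeR fit of all 12 libraries (3), were 1 without the filter on low counts (363), 1 by DESeq2 (48), 2 with a replicate block on the 6 libraries (929) and 2 without replicate 3 of the induced groups (1566), and 0 to 1 when single libraries were left out. In quercetin against DMI, 0 in that fit (150), the count was 1 with RLE scaling (169), 2 without the filter (1737), 2 with the replicate block over all 12 libraries (1395), 0 with only the 6 libraries (0), 1 with the block on those 6 (706), 2 without replicate 3 of the induced groups (5049), 0 by limma-voom (1) and 2 by DESeq2 (958), and 0 to 2 when single libraries were left out. In luteolin against quercetin it was 0 in every setting, also without the filter (450) and without replicate 3 of the induced groups (2081). The block over all 12 libraries changed no other call of a member. Scd4 in quercetin against DMI turned to 0.21 without replicate 3 of the induced groups and ranged from -0.41 to 0.35 when single libraries were left out. Scd2 in quercetin against untreated turned to -0.0717 without replicate 3 of the induced groups and ranged from -0.0713 to 0.284 with single libraries left out. Among other desaturation genes, Fads1 in quercetin against DMI turned to 0.0111 without replicate 3 of the induced groups and ranged from -0.0964 to 0.0644 with single libraries left out, Cyb5r1 in the same comparison ranged from -0.0039 to 0.296, and Fads2 in DMI against untreated from -0.017 to 0.208. The cause was not tested. Scd4 could not be fitted under the filter of 1 CPM or in some fits of 6 libraries. Scd3 and Scd4 rest on few counts, which limits their precision.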
